A study of Mus musculus with 11 samples.

Results

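The FGF and EGF feedback genes are 10 genes, Spry1, Spry2, Spry4, Spred1, Dusp4, Dusp6, Etv4, Etv5, Fosl1 and Il17rd, chosen by name as known transcriptional readouts of growth factor signalling and matched to the deposited gene identifiers through the GENCODE mouse annotation. The choice was made with earlier results of these data known. All 10 were found among the 53801 genes of the tables, and all 10 passed the filter on low counts that left 15920 genes for testing. The study asked how the benzophenone metabolite 4HBP acts on mouse neural stem cells (NSCs), and sequenced the RNA of 11 cultures of primary NSCs taken from the embryonic hippocampus of C57BL/6 mice. Cultures received 1 µM 4HBP or the vehicle EtOH for 7 days. The compound is written out as 4-Hydroxybenzoic acid in the sample labels and as 4-hydroxybenzophenone in the methods of the study, and the abbreviation 4HBP, which both use, is kept here. Proliferation medium was DMEM/F12 with 1% B27 and with EGF and bFGF at 20 ng/ml each (3 cultures with 4HBP, 3 with vehicle), and differentiation medium was DMEM/F12 with 2% B27 and neither factor listed (3 with 4HBP, 2 with vehicle). All cultures had 1% glutaMAX and antibiotics. Nothing in the labels says whether the cultures of a group came from separate embryos or preparations, so the p-values measure the spread between these cultures, which may be technical.

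As background, EGF and FGF bind receptor tyrosine kinases that switch on RAS and, through RAF and MEK, the kinase ERK, and both factors keep cultured NSCs dividing. Active ERK enters the nucleus and raises the transcription of genes whose proteins dampen the same cascade, so the level of these transcripts is widely used as a readout of the pathway. Sprouty and Spred proteins act upstream, around the receptor, RAS and RAF, and Il17rd (also called Sef) is a membrane protein that restrains FGF signalling. Dusp6 is a cytoplasmic phosphatase that removes the activating phosphates from ERK, and Dusp4 is its nuclear counterpart. Etv4 and Etv5 are ETS transcription factors of the PEA3 group, and Fosl1 encodes the AP-1 subunit FRA1.

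Regulatory sequence of these genes was examined because several of them moved together under 4HBP. In cells with low ERK activity the repressor Capicua (Cic) binds octamers in the promoters of such targets, and ERK relieves that repression. RefSeq windows reaching from 250 bases before to 50 bases after a gene start (GRCm38.p6) held 6 of the 10 genes (7 windows, with 2 for Etv5). Any of the 4 Capicua octamers TGAATGAA, TGAATGGA, TCAATGAA and TCAATGGA, searched on both strands, occurred in the windows of 2 of these 6 genes, Dusp6 and Spry2, and in 3.84% of all 32851 windows. The Dusp6 window held TCAATGGA 2 times on the reverse strand, at bases -24 to -17 and 2 to 9 counted from the start site, and this octamer occurred in 0.67% of windows. The Spry2 window held TCAATGAA 1 time on the reverse strand, at bases -54 to -47, and 0.749% of windows held it. The 200 bases before these start sites are shown, with 10 bases past the start for Dusp6, because these 2 genes carried the octamers. Both rose under 4HBP in proliferation medium, as described further on. Spry1, Spred1 and Etv5 also rose there and had none of the octamers in their windows, and neither had Il17rd, which did not rise. A part of the octamers in the rise was not tested. Capitals mark the octamers. Dusp6 is read at chr10:99263031-99263240 on the plus strand and Spry2 at chr14:105896820-105897019 on the minus strand.
Dusp6: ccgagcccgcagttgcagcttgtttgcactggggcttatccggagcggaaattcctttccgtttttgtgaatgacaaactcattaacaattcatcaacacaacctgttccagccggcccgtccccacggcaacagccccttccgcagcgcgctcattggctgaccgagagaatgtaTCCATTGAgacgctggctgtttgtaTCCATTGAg
Spry2: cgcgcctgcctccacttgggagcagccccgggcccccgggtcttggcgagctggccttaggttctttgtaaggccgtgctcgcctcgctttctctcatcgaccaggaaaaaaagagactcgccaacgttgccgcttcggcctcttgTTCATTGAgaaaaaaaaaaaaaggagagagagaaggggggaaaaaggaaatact
The AP-1 motif TGACTCA (5.2% of all windows), the ETS motif CCGGAAG (8.86%) and the cyclic AMP response element TGACGTCA (1.79%) were in none of the 7 windows. A match describes these letters only, and the motifs and windows were chosen with the expression results known.

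Levels can be compared between genes only per length, and the TPM values of the authors (a transcript abundance normalized for length and depth) set the order. In proliferation medium with vehicle, Etv4 was the most abundant of the 10 at 94.9 ± 8.68 TPM (SD, n = 3), followed by Etv5 at 53.5 ± 9.75 and Spry2 at 45.4 ± 3.0, whose libraries overlapped those of Etv5. Spred1 stood at 33.6 ± 2.7 TPM and Dusp6 at 8.01 ± 1.68, and the remaining 5 genes lay between 2.55 and 5.36 TPM on average with each overlapping its neighbour in the order. In differentiation medium with vehicle (n = 2) the order changed: Spry2 led at 64.8 ± 0.856 TPM and Spred1 followed at 60.1 ± 2.91, ahead of Etv5 at 45.3 ± 0.325 and Etv4 at 41.1 ± 0.339. Dusp6 at 30.3 ± 0.474 and Dusp4 at 27.6 ± 2.57 came next without overlap, and Fosl1 (1.95 ± 0.601) and Il17rd (1.94 ± 0.177) overlapped at the bottom. With 4HBP in proliferation medium, Etv4 (101.6 ± 18.0 TPM) and Etv5 (86.6 ± 2.61) overlapped at the top (n = 3). With 4HBP in differentiation medium, Dusp4 (27.6 ± 0.869) stood above Dusp6 (24.8 ± 1.51) without overlap (n = 3). Among the Sproutys, Spry2 supplied 78.9% to 85.1% of the summed Spry1, Spry2 and Spry4 TPM in every one of the 11 libraries.

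Library totals lay between 20822921 and 23438463 counts, at which 3 counts correspond to 0.128 to 0.144 CPM (counts scaled to 1000000 per library), and the members had between 18 (Fosl1) and 5314 (Etv5) counts in a library. Neural stem cell markers were present in all libraries (10 of 10 above 0, summed level 5098 to 5929 CPM in proliferation medium), summed microglia markers stayed at 1.41 to 3.87 CPM, and the endothelial markers Cldn5 and Cdh5 were at 0 throughout. Summed cycling markers were 519 to 1133 CPM in proliferation medium and 185 to 247 CPM in differentiation medium. Replicate 3 of the 4HBP cultures in proliferation medium stood apart from replicates 1 and 2 of its group (mean chi-square per gene 23.8 and 21.5, against 5.34 between those 2 libraries). Without it, 6 of the 10 members were higher with 4HBP in proliferation medium by the test described below. Among all genes this held for 1534 of 15858.

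**Figure D1:**
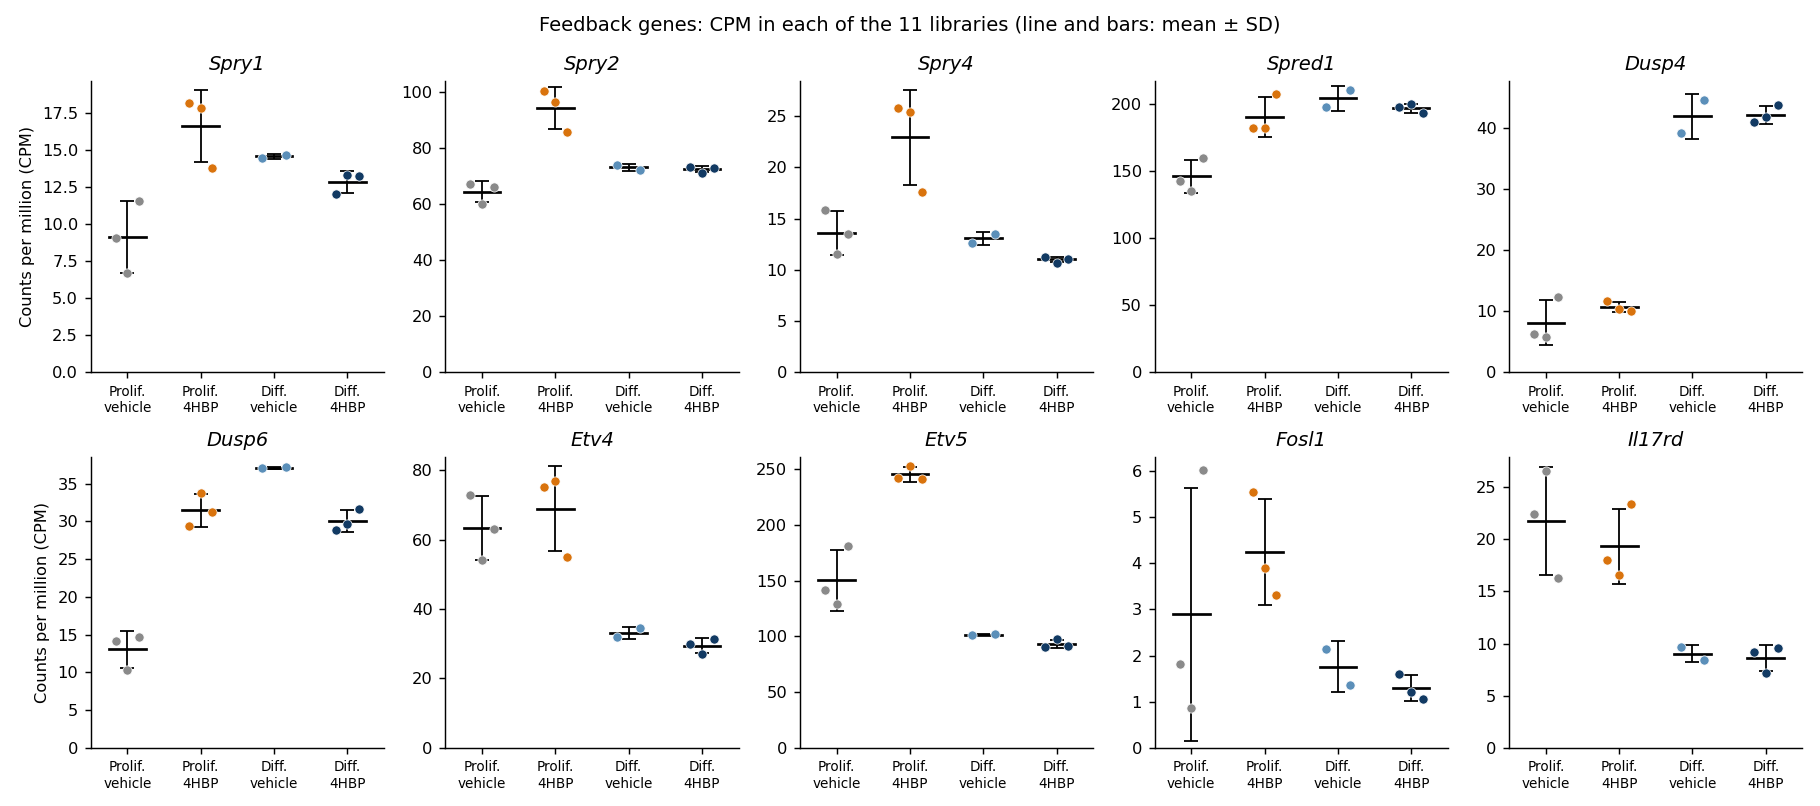
CPM of each of the 10 feedback genes (vertical axis, starting at 0) in the 11 libraries, by medium and treatment; each point is a library, and the line and bars are the group mean and SD. In proliferation medium the 3 libraries with 4HBP lie above all 3 vehicle libraries for Spry1, Spry2, Spry4, Spred1, Dusp6 and Etv5.

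The comparison of 4HBP with vehicle in proliferation medium asks whether the compound changes these readouts where EGF and bFGF are supplied. Dusp6, Spry1, Spry4, Etv5, Spry2 and Spred1 rose, by 1.27-fold to 2.36-fold, and no member fell. With edgeR's quasi-likelihood test and Benjamini-Hochberg adjustment over the 15920 genes, 6 of the 10 members were higher at an adjusted p under 0.05, where 8.59% of all genes tested were higher. The median log2 fold change of the 10 members was 0.52, and that of all genes tested was -0.00107.

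Among the phosphatases, Dusp6 stood at 14.1, 10.3 and 14.7 CPM with vehicle and at 29.4, 33.8 and 31.3 CPM with 4HBP. Every treated library lay above every vehicle library. Dusp6 rose 2.36-fold (log2 fold change 1.24, SE 0.111, 95% confidence interval 1.00 to 1.48, adjusted p = 5.3e-05), and the log2 fold change stayed between 1.10 and 1.34 with any 1 library left out. Dusp4 read 6.16, 5.71 and 12.3 CPM with vehicle and 11.6, 10.2 and 10.03 CPM with 4HBP. The groups overlapped only through vehicle replicate 3, which was the highest of the 6 libraries, and Dusp4 did not pass the test (log2 difference 0.37, interval -0.11 to 0.85, adjusted p = 0.29). Without that library its log2 difference was 0.81 with an adjusted p of 8.9e-04.

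The Sproutys, which block the cascade near the receptor, rose together. Spry1 had 9.08, 6.66 and 11.6 CPM with vehicle and 18.1, 17.8 and 13.8 CPM with 4HBP, a 1.79-fold rise (log2 0.84, SE 0.173, adjusted p = 0.0061). Spry4 had 15.8, 11.5 and 13.5 CPM with vehicle and 25.8, 25.4 and 17.6 CPM with 4HBP, a 1.65-fold rise (log2 0.73, SE 0.154, adjusted p = 0.0069). For both genes the third 4HBP library, the one that stood apart, was the lowest treated library and still above every vehicle library. Spry2, the abundant Sprouty, went from 67.1, 60.1 and 65.9 CPM to 100.4, 96.3 and 85.8 CPM, a 1.43-fold rise with the smallest error of the 3 Sproutys (log2 0.52, SE 0.0754, adjusted p = 8.1e-04). Summed over the 3 genes, the Sprouty level was 54.9 ± 4.72 TPM with vehicle and 83.1 ± 6.48 TPM with 4HBP (SD, n = 3 each).

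Spred1, a Sprouty-related membrane inhibitor of RAF activation, read 142.8, 135.6 and 160.1 CPM with vehicle and 182.2, 182.4 and 208.1 CPM with 4HBP. It rose 1.27-fold, the smallest of the 6 rises (log2 0.35, SE 0.0672, adjusted p = 0.0042), and here the third 4HBP library was the highest. Il17rd went the other way within its error, with 22.4, 26.6 and 16.3 CPM against 18.0, 16.6 and 23.4 CPM (log2 difference -0.21, interval -0.57 to 0.15, adjusted p = 0.44). Its treated and vehicle libraries interleaved.

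Of the ERK-induced transcription factors, Etv5 rose and its close relative Etv4 did not pass the test. Etv5 had 141.1, 128.5 and 180.7 CPM with vehicle and 242.4, 252.9 and 241.0 CPM with 4HBP (1.60-fold, log2 0.68, SE 0.10, adjusted p = 9.3e-04). Etv4 had 72.8, 54.2 and 63.04 CPM with vehicle and 75.1, 76.9 and 54.8 CPM with 4HBP (log2 difference 0.09, interval -0.20 to 0.38, adjusted p = 0.69). The interval of Etv4 ends below the estimate for Etv5, and the ratio of Etv5 to Etv4 TPM was 0.563 ± 0.0826 with vehicle and 0.873 ± 0.178 with 4HBP (SD, n = 3 each), with no overlap between the libraries. Fosl1, at 1.82, 0.857 and 6.02 CPM with vehicle and 5.54, 3.9 and 3.31 CPM with 4HBP, was the least certain member (log2 difference 0.52, interval -0.54 to 1.59, adjusted p = 0.52). Vehicle replicate 3 again held the highest of the 6 values, and without it Fosl1 differed by 1.64 on the log2 scale (adjusted p = 0.0094), which brought the members called to 8.

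The 3 treated libraries lay above all 3 vehicle libraries for 6 of the 10 members, the ones that passed the test, where this held for 17.9% of all genes tested in CPM and for 15.1% in TMM-scaled CPM (library totals adjusted by the trimmed mean of M values). Limma on log2(CPM + 1) or log2(CPM + 0.1) of the 6 proliferation libraries was the method closest to that of the study. With limma these 6 genes had unadjusted p-values of 1.2e-04 to 0.016 and adjusted p-values of 0.054 to 0.26. None of them passed an adjusted p under 0.05, and 18 and 22 genes passed in all. The study states its own threshold as a p-value with a minimum fold change and names no adjustment, so these counts do not follow its rule. With edgeR on the 6 proliferation libraries alone, these 6 genes passed with adjusted p-values of 0.004 to 0.044, and with 1 further library left out Dusp6 passed in every fit, and was the only member left without 4HBP replicate 2, vehicle replicate 1 or vehicle replicate 2.

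Markers of other states moved in the same libraries. Of the 10 astrocyte markers, 9 fell with 4HBP in proliferation medium, with summed levels of 9229 to 10502 CPM with vehicle and 7289 to 8237 CPM with 4HBP, and none of the 10 was at 0 everywhere. Among all genes tested 8.17% fell. None of the 9 neuron markers tested was called. Of the 10 cycling markers 1 fell (median log2 difference -0.46), and their sum was 984 to 1133 CPM with vehicle and 519, 810 and 959 CPM with 4HBP, the lowest in replicate 3, which stood apart. Of the 10 oligodendrocyte lineage markers 3 fell, with sums of 3721 to 4624 CPM with vehicle and of 2728 (replicate 3), 3665 and 3909 CPM with 4HBP, and 1 of 10 neural stem cell markers fell. The part of these shifts in the feedback genes was not tested. In bulk RNA, fewer cells of a type and less RNA per cell cannot be told apart.

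**Figure D2:**
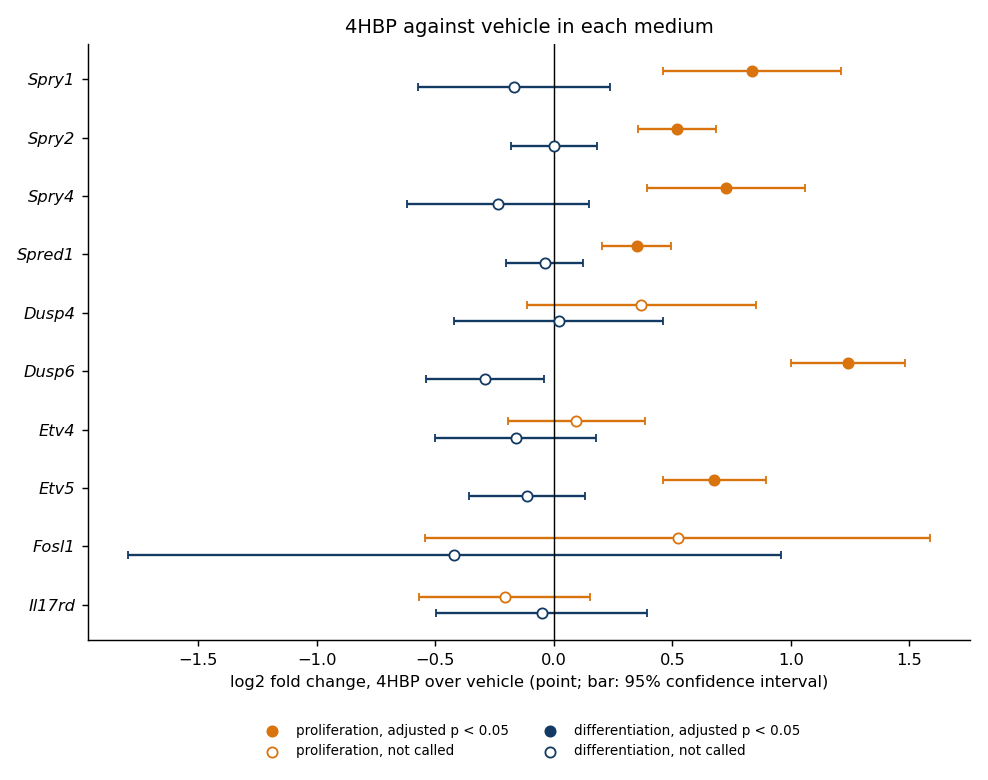
Log2 fold change of 4HBP over vehicle (horizontal axis) for each feedback gene in proliferation medium (orange) and differentiation medium (blue), from the edgeR fit; bars are 95% confidence intervals and filled points passed an adjusted p of 0.05. In proliferation medium 6 genes are filled and all lie to the right of 0, and in differentiation medium none is filled.

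In differentiation medium, where no EGF or bFGF was listed, 4HBP gave no call among the 10 members and none among the 15920 genes in the edgeR fit (0% of genes called). At an unadjusted p under 0.05, the edgeR fit of all 11 libraries gave 644 of the 15920 genes. That is a smaller share than this threshold lets through when nothing changes. At the same threshold, edgeR on the 5 differentiation libraries alone gave 2460 of 15484 genes. Limma on these libraries gave 2660 and 1917 of 25711 genes with pseudocounts of 1 and 0.1. DESeq2 called 5 genes after adjustment, none of them a member. The median log2 difference of the members was -0.14, beside 0.00599 over all genes. Dusp6 was at 37.0 and 37.2 CPM with vehicle and at 28.9, 29.7 and 31.6 CPM with 4HBP. The groups were apart, with the treated libraries lower, and the log2 difference was -0.29 (interval -0.54 to -0.04, unadjusted p = 0.025, adjusted p = 1). Etv5 (101.2 and 101.9 CPM against 90.1, 97.6 and 91.5 CPM), Spry1 (14.4 and 14.7 against 11.98, 13.3 and 13.2 CPM), Spry4 (12.6 and 13.5 against 11.2, 10.7 and 11.1 CPM) and Etv4 (31.8 and 34.4 against 29.8, 27.04 and 31.3 CPM) were arranged the same way, with log2 differences of -0.11, -0.17, -0.24 and -0.16. So 5 of the 10 members were lower in CPM in every library with 4HBP, an arrangement found in 17.7% of all genes tested. In TMM-scaled CPM Etv4 overlapped, which left 4 members, and 15.5% of all genes had this arrangement. Spry2 differed least, by -0.00067 on the log2 scale (interval -0.18 to 0.18), with 73.9 and 72.1 CPM against 73.0, 71.1 and 72.9 CPM. Spred1, Dusp4, Fosl1 and Il17rd overlapped between the groups and differed by -0.42 to 0.02 on the log2 scale.

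The differentiation libraries varied less among themselves than the proliferation libraries, with a biological coefficient of variation of 0.0368 when fitted alone, against 0.117 for the 6 proliferation libraries. Fitted alone, they gave 1 member: Dusp6 fell by 0.30 on the log2 scale (SE 0.0599, adjusted p = 0.015), where 2.55% of the 15484 genes tested were called in either direction. With 1 further library left out, the adjusted p of Dusp6 ranged from 0.0089 to 0.13, under 0.05 only without 4HBP replicate 3.

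The difference between the 4HBP effects in the 2 media was tested directly as an interaction. It uses the proliferation effects given above and is not independent of them. The effect was larger in proliferation medium for 6 of the 10 members, Dusp6, Spry1, Spry4, Etv5, Spry2 and Spred1, and smaller for none, where 2.01% of all genes tested had a larger effect and 4.49% differed in either direction. Dusp6 differed most, by 1.53 on the log2 scale (SE 0.159, interval 1.19 to 1.87, adjusted p = 5.9e-04), and it kept an adjusted p of 0.011 or lower with any 1 library left out. With limma 2 members passed at a pseudocount of 1 and 1 at a pseudocount of 0.1. With the replicate number added to the edgeR fit as a block, 1 member passed, Dusp6. In the edgeR fit without a block the other 5 differed by 0.39 to 1.00 with adjusted p-values of 0.013 to 0.046. These 5 were near the threshold: between 1 and 8 members passed when single libraries were left out, with 1 left (Dusp6) without either vehicle library of differentiation medium, and 8 without proliferation vehicle replicate 3, where Dusp4 and Fosl1 joined. For Dusp4, Etv4, Fosl1 and Il17rd the difference lay between -0.15 and 0.94, with intervals that included 0.

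The comparison of the media asks how the feedback genes stand with and without the added growth factors. The media also differ in B27 and in the cells they hold, so growth factor, medium and cell type cannot be told apart. In vehicle cultures, Dusp4, Dusp6, Spry1 and Spred1 were higher in differentiation medium and Il17rd, Etv4 and Etv5 were lower. With 7 of 10 called (4 higher, 3 lower), the members were near the background, where 61.4% of all genes tested were called, 30.8% higher and 30.6% lower. The members moved in both directions.

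Dusp4 had the widest gap of the 10, with 6.16, 5.71 and 12.3 CPM in proliferation medium and 39.2 and 44.5 CPM in differentiation medium. It rose 4.89-fold (log2 2.29, SE 0.222, adjusted p = 1.6e-06), and without the high vehicle replicate 3 the log2 difference was 2.73. Dusp6 rose 2.68-fold (log2 1.42, SE 0.119, adjusted p = 4.5e-07). TPM and CPM are not on the same footing across the media: for Spry2, whose listed length is constant, 1 CPM corresponded to 0.705 ± 0.0086 TPM in proliferation (n = 3) and 0.887 ± 0.0037 TPM in differentiation vehicle cultures (n = 2). On the TPM scale the summed level of the 2 phosphatases was 12.2 ± 3.42 in proliferation medium (n = 3) and 57.9 ± 2.09 in differentiation medium (n = 2), and the ratio of Dusp4 to Dusp6 went from 0.515 ± 0.139 to 0.915 ± 0.0992. Spred1 rose 1.32-fold (log2 0.40, SE 0.0744, adjusted p = 4.7e-04). Spry1 rose 1.505-fold (adjusted p = 0.017) and lost its call when proliferation vehicle replicate 2 or either differentiation vehicle library was left out (highest adjusted p 0.080).

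The genes that fell were the FGF antagonist Il17rd and the PEA3 factors. Il17rd went from 22.4, 26.6 and 16.3 CPM to 9.62 and 8.45 CPM (log2 -1.36, SE 0.201, adjusted p = 6.8e-05). Etv4 went from 72.8, 54.2 and 63.04 CPM to 31.8 and 34.4 CPM (log2 -1.02, SE 0.157, adjusted p = 9.4e-05). Etv5 went from 141.1, 128.5 and 180.7 CPM to 101.2 and 101.9 CPM (log2 -0.65, SE 0.115, adjusted p = 2.8e-04). Libraries of the media did not overlap for these 3 genes, nor for Spry2, which was not called. The share of all genes arranged this way is not given here, and 61.4% of all genes tested were called between these media. Spry2 (log2 difference 0.10, adjusted p = 0.34), Spry4 (-0.14, adjusted p = 0.50) and Fosl1 (-0.82, adjusted p = 0.25) did not pass, and for Fosl1 the difference was 0.31 without vehicle replicate 3.

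**Figure D3:**
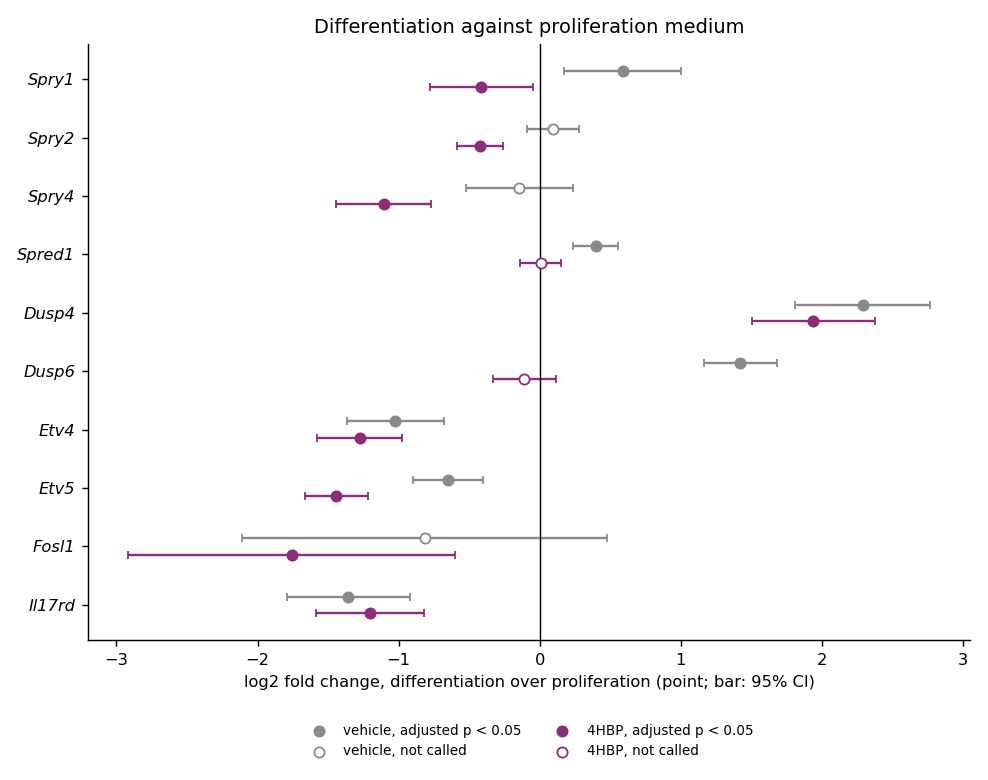
Log2 fold change of differentiation over proliferation medium (horizontal axis) for each feedback gene in vehicle cultures (grey) and 4HBP cultures (purple); bars are 95% confidence intervals and filled points passed an adjusted p of 0.05. Dusp4 lies at 2.29 and 1.94, and Dusp6 at 1.42 in vehicle cultures and -0.11 in 4HBP cultures.

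In 4HBP cultures the same comparison gave 1 member higher and 7 lower in differentiation medium, where 67.2% of all genes tested were called, 33.3% higher and 33.8% lower. Dusp4 was again higher, at 11.6, 10.2 and 10.03 CPM in proliferation medium and 40.9, 41.7 and 43.7 CPM in differentiation medium (3.84-fold, log2 1.94, SE 0.201, adjusted p = 2.1e-06). The members that fell were Fosl1 (log2 -1.76), Etv5 (-1.44), Etv4 (-1.28), Il17rd (-1.20), Spry4 (-1.11), Spry2 (-0.42) and Spry1 (-0.41), with adjusted p-values of 6.5e-08 to 0.043. The call for Spry1 was lost when any library other than proliferation replicate 3 was left out (highest adjusted p 0.14). Dusp6 did not pass (log2 difference -0.11, interval -0.33 to 0.12): its level with 4HBP in proliferation medium, 31.5 ± 2.21 CPM, lay within the error of that in differentiation medium, 30.1 ± 1.42 CPM (SD, n = 3 each). On the TPM scale the same libraries did not overlap and the direction turned, with 15.9 to 19.6 TPM in proliferation and 23.4 to 26.4 TPM in differentiation medium. Spred1 differed by 0.01 (interval -0.14 to 0.15). The comparisons of medium in vehicle and in 4HBP cultures share no library with each other, but each shares libraries with the 4HBP comparisons.

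Markers of cell state also differed between the media, where 61.4% of all genes were called in vehicle cultures, 30.8% higher and 30.6% lower. All 10 cycling markers fell in vehicle cultures (median log2 change -2.83). Of 10 neural stem cell markers 8 fell and 2 rose. Of 10 astrocyte markers 7 rose and 3 fell, namely Aldh1l1 (log2 -1.59), Gfap (-0.62) and Slc1a3 (-0.14). Of 10 oligodendrocyte lineage markers 7 rose and none fell. Of 9 neuron markers tested 5 rose and 1 fell. Summed astrocyte markers were 9229 to 10502 CPM in proliferation and 14828 to 14900 CPM in differentiation medium, and summed oligodendrocyte lineage markers 3721 to 4624 and 10094 to 10564 CPM. Mitochondrial genes held 8.49% to 9.60% of the counts in the 6 proliferation libraries and 5.76% to 6.24% in the 5 differentiation libraries. The part of these values in the feedback genes was not tested.

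Etv4 and Etv5, which encode proteins with closely related DNA-binding domains, could also be compared in transcript makeup. RSEM reports for each gene the mean length of its transcripts weighted by abundance. For Etv4, with 12 transcripts listed, this length was 1086 ± 64.9 bases with vehicle and 1105 ± 23.9 with 4HBP in proliferation medium (n = 3 each), and 1539 ± 71.2 (n = 2) and 1517 ± 61.5 (n = 3) in differentiation medium. All 6 proliferation libraries (1043 to 1161 bases) lay below all 5 differentiation libraries (1472 to 1589 bases). The mix of Etv4 transcripts assigned by RSEM therefore differed between the media, while the treatments overlapped within each medium. In vehicle cultures Etv4 went from 94.9 to 41.1 TPM between the media, and from 63.3 ± 9.32 to 33.1 ± 1.83 CPM. For Etv5, with 5 transcripts listed, the length stayed between 3915 and 3975 bases in every library. The lengths of Spry2, Spry4, Dusp4 and Fosl1, each with 1 transcript listed, are constant by construction.

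**Figure D4:**
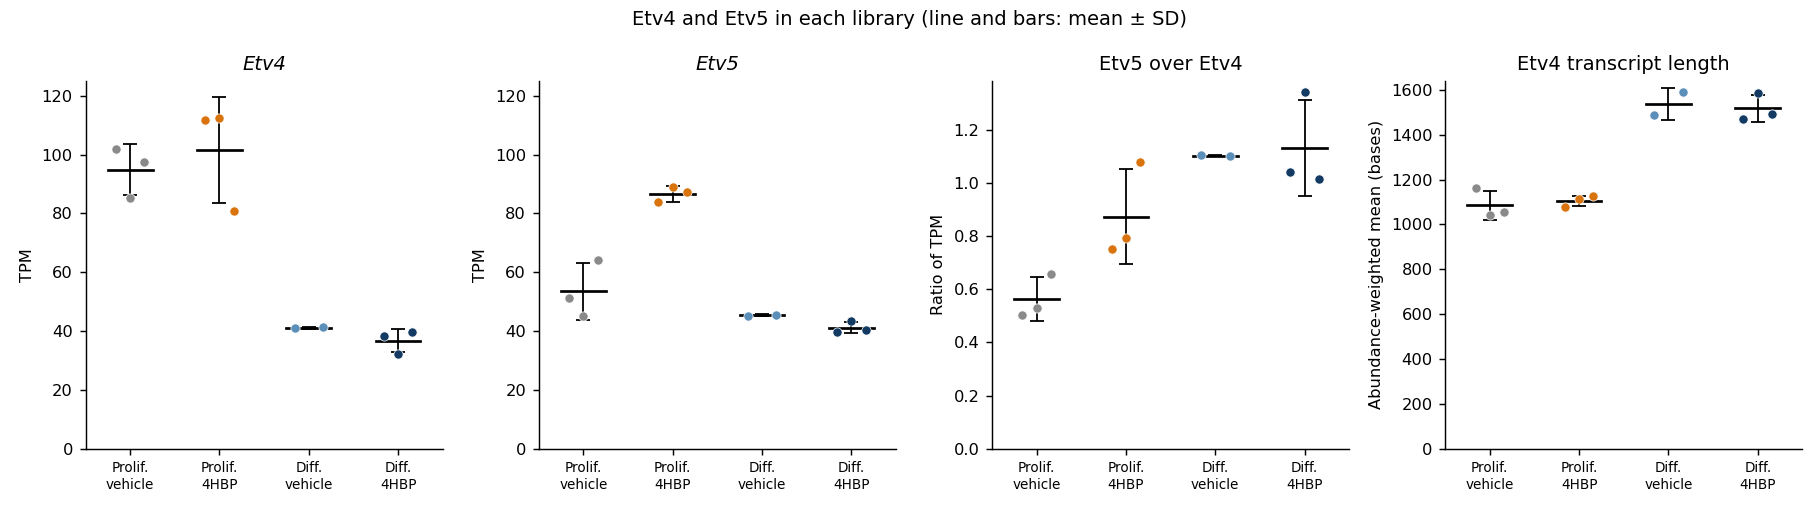
Etv4 and Etv5 levels in TPM, the ratio of Etv5 to Etv4 TPM, and the abundance-weighted mean transcript length of Etv4 in bases, in each library; the line and bars are the group mean and SD, and all axes start at 0. The ratio lies at 0.504 to 0.657 in proliferation vehicle cultures and the Etv4 length shifts between the media.

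The rest of the pathway was examined in 5 lists, which were chosen with earlier results of these data known. Of 20 other genes that ERK is known to induce, 10 rose with 4HBP in proliferation medium and 1 fell (median log2 difference 0.64). Among all genes tested, 16.8% were called. The 3 strongest were zinc finger immediate early genes. Egr1 went from 76.3 ± 15.1 to 204.0 ± 24.4 CPM (2.62-fold, adjusted p = 5.3e-05), Egr3 from 1.11 ± 0.40 to 4.26 ± 1.22 CPM (3.72-fold, adjusted p = 0.0015) and Egr2 from 1.62 ± 0.29 to 9.67 ± 8.29 CPM (5.73-fold, adjusted p = 0.0037), with Egr2 spread from 4.66 to 19.2 CPM among the treated libraries. Fosb, Lif, Ier3, Junb, Ier2, Phlda1 and Fos also rose, by 0.39 to 1.31 on the log2 scale. Emp1, an epithelial membrane protein gene, fell (log2 -0.62, adjusted p = 0.0089). Etv1, the third PEA3 factor, did not pass (log2 difference -0.05, adjusted p = 0.68), and neither did Ccnd1 or Myc.

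The other feedback inhibitors gave a different count: of 16 tested, among them Dusp5, Dusp7, Spred3, Errfi1 and Lrig1, none passed the test with 4HBP in proliferation medium (median log2 difference 0.05). Among all genes tested 16.8% were called. Levels of Lrig1, a transmembrane inhibitor of EGF receptors, were 577.1 ± 20.7 CPM with vehicle and 578.8 ± 33.9 CPM with 4HBP. Spred3 was at 63.9 ± 14.2 and 79.6 ± 11.6 CPM. Spry3 could not be matched to an identifier and is not counted.

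For ligands and receptors the same comparison is given, in which 8.59% of all genes tested rose and 8.17% fell. Among ligands, 2 of 10 rose and 1 fell. Nrg1, which encodes a neuregulin ligand of ERBB receptors, rose from 2.29 ± 0.70 to 6.55 ± 1.25 CPM (2.78-fold, adjusted p = 5.8e-04), and Fgf2, the gene of the bFGF that is also in the medium, rose from 15.2 ± 2.91 to 25.03 ± 6.09 CPM (1.61-fold, adjusted p = 0.011). Fgf1 fell from 81.8 ± 6.83 to 54.4 ± 12.6 CPM (log2 -0.62, adjusted p = 0.012). Of 8 receptors, 1 rose and 2 fell. Fgfr2 fell from 80.0 ± 5.97 to 45.8 ± 5.78 CPM (log2 -0.84, SE 0.089, adjusted p = 1.4e-04), Fgfr3 fell by 0.36 on the log2 scale (adjusted p = 0.0062) and Erbb2, the coreceptor without a ligand of its own, rose from 13.5 ± 0.35 to 19.9 ± 0.61 CPM (1.44-fold, adjusted p = 7.3e-04). Fgfr1 differed by 0.01 and Egfr by -0.26 (adjusted p = 0.13). Fgfrl1, Erbb3 and Erbb4 differed by -0.18 to -0.24 with adjusted p-values of 0.14 to 0.52, and Fgfr4 did not pass the filter.

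Of 26 RAS-ERK transducers tested, 3 rose with 4HBP in proliferation medium (Elk3 by 0.39 on the log2 scale, Shc1 by 0.35 and Rps6ka3 by 0.22) and 3 fell (Map2k1, the MEK1 gene, by 0.25, Grb2 by 0.21 and Frs2 by 0.17), where 16.8% of all genes were called. In differentiation medium 4HBP gave no call in any of the 5 lists. In the interaction, 3 of 20 ERK-induced genes had a larger effect in proliferation medium (Egr2 by 3.10, Egr3 by 3.05 and Egr1 by 1.51 on the log2 scale). So did Nrg1 (1.97), Erbb2 (0.60) and Shc1 (0.53). Among all genes tested, 2.01% had a larger effect and 4.49% differed in either direction. Fgfr2 (-0.92) and Fgf1 (-0.83) differed the other way. Both fell in proliferation medium (log2 -0.84 and -0.62), and these log2 changes were lower than in differentiation medium.

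**Figure D5:**
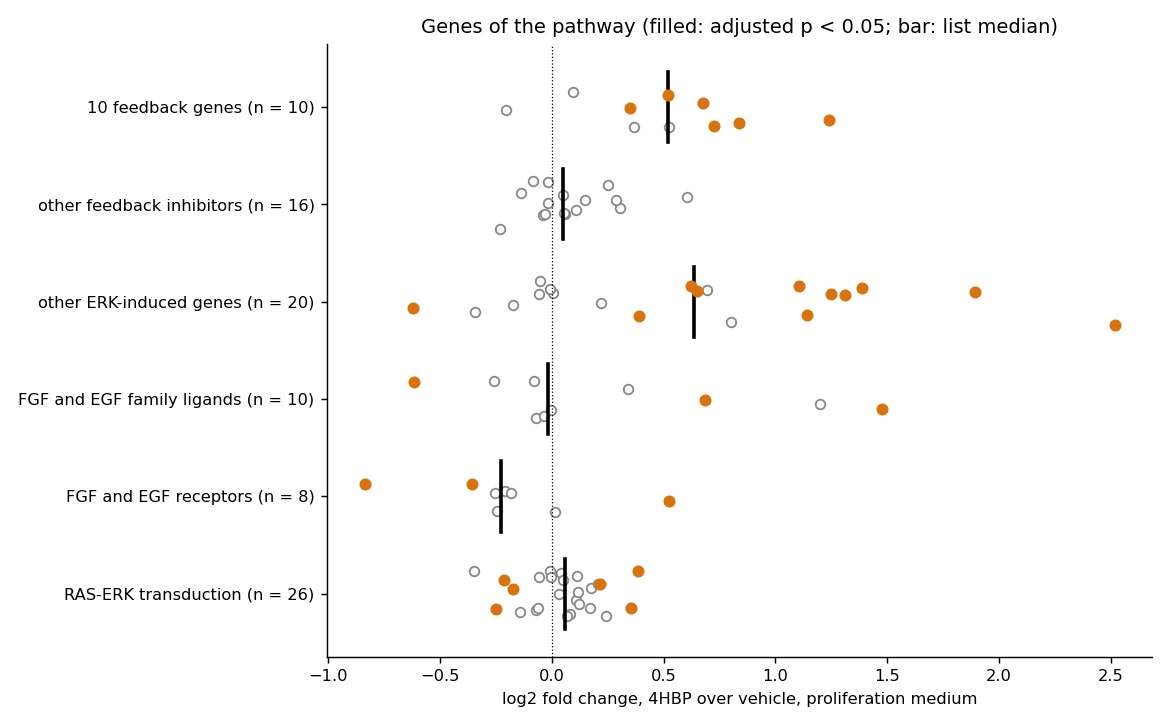
Log2 fold change of 4HBP over vehicle in proliferation medium (horizontal axis) for each gene of the feedback group and of 5 pathway lists; filled points passed an adjusted p of 0.05, bars are list medians, and vertical scatter within a list has no meaning. The feedback genes and the other ERK-induced genes have medians of 0.52 and 0.64, and no other feedback inhibitor is filled.

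The list counts between the media stand against 61.4% of all genes called in vehicle cultures (30.8% higher, 30.6% lower) and 67.2% under 4HBP (33.3% higher, 33.8% lower). Between the media in vehicle cultures, 12 of 20 ERK-induced genes fell and 1 rose (median log2 difference -0.79), with Hmga2 (log2 -5.43), Emp1 (-3.00) and Ier3 (-2.62) lowest and Epha4 higher (1.18). Of 16 other feedback inhibitors, 6 fell, led by Dusp5 (-1.45), Spred3 (-1.43) and Lrig1 (-1.10), and 3 rose, Dusp7 (0.89), Errfi1 (0.33) and Dusp9, which stayed under 1 CPM. Of 10 ligands 6 rose and none fell, led by Fgf22 (2.91), Fgf18 (1.89) and Nrg1 (1.87). All 8 receptors were called: Erbb3 (2.61), Erbb4 (1.35), Fgfr1 (0.75), Fgfr3 (0.57), Fgfr2 (0.49) and Erbb2 (0.41) rose, and Fgfrl1 (-1.14) and Egfr (-0.47) fell. Of 26 transducers 8 rose, led by Map2k2 (0.62), Hras (0.49) and Ptpn11 (0.39), and 15 fell, led by Rps6ka1 (-2.49), Rps6ka3 (-0.66) and Cic (-0.57). Under 4HBP, 16 of 20 ERK-induced genes fell and 2 rose (median log2 difference -1.68): Hmga2 (-5.76), Fosb (-3.86) and Ier3 (-3.26) fell most, and Epha4 (1.28) and Plau (1.14) rose.

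In the same comparison under 4HBP, 9 of 16 other feedback inhibitors fell, led by Dusp5 (-1.88), Spred3 (-1.79) and Lrig1 (-0.99), and Dusp7 rose (1.04). Of 10 ligands 5 rose, led by Fgf1 (1.92), Nrg2 (1.77) and Fgf22 (1.73), and Fgf2 fell (-1.09). Of 8 receptors 5 rose, Erbb3 (2.87), Erbb4 (1.52), Fgfr2 (1.42), Fgfr3 (0.89) and Fgfr1 (0.59), while Fgfrl1 (-0.90) and Erbb2 (-0.18) fell and Egfr differed by -0.12 (adjusted p = 0.34). Of 26 transducers 5 rose, led by Map2k2 (0.80), Map2k1 (0.59) and Ptpn11 (0.38), and 14 fell, led by Rps6ka1 (-2.27), Rps6ka3 (-0.93) and Shc1 (-0.83).

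Likeness of profile was measured as the root mean square (RMS) difference of log2 CPM over the 11 libraries, each gene centred on its own mean, against 13624 other protein-coding genes. These are descriptions without a test. Etv5 was closest to Osbpl6 (RMS difference 0.0791) and 1700017B05Rik (0.0819), against its own spread of 0.594 about its mean. Dusp4, whose spread was the widest at 1.12, was closest to Runx1t1 (0.131) and then Fam81a (0.209). Dusp6, with a spread of 0.582, was closest to Samd4 (0.181) and Phlda3 (0.189). Etv4 was closest to 9330182L06Rik (0.126) and Snapc2 (0.127), and Il17rd to Tle1 (0.158) and Zfp184 (0.159). The Sproutys had different nearest genes, Nr2c2ap (0.17) and Slc35c2 (0.181) for Spry1, Grwd1 (0.0856) and Bcl2l1 (0.0862) for Spry2, and Esd (0.158) and Nop2 (0.163) for Spry4. Spred1 was nearest to Pde4dip (0.053) and Dmd (0.0555). Fosl1, the member with the fewest counts, was nearest to Tm4sf1 (0.364) and Rasl11a (0.402).

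The study used a stranded library kit, but the sources used here do not state whether the counting used strand. Reads of 2 members may therefore be shared with an antisense gene. Spry1 overlaps Gm42922 on the opposite strand, which held 4 to 20 counts, and Fosl1 overlaps Ccdc85b, which held 73 to 143 counts beside the 18 to 126 of Fosl1. In GRCm38 coordinates, Dusp6 lies at chr10:99263231-99267489, Dusp4 at chr8:34807297-34819894, Spry1 at chr3:37639947-37644598, Spry2 at chr14:105891947-105896819, Spred1 at chr2:117121374-117182279, Il17rd at chr14:27038941-27107286, Etv4 at chr11:101769742-101785371, Etv5 at chr16:22381309-22439719 and Fosl1 at chr19:5447547-5455946, each as a protein-coding gene quantified over its annotated transcripts.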

How the data were processed

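RNA of the 11 NSC cultures was sequenced by the authors as paired reads, trimmed with cutadapt, and aligned and quantified with RSEM 1.3.0 and Bowtie2 2.2.9 on GRCm38 (mm10) with GENCODE genes, per the labels and the study's methods. The deposited expected counts are RSEM estimates per gene without normalization, the deposited TPM values are normalized for length and depth, and the deposited FPKM values were not used here. The deposited transcript length is an abundance-weighted mean. Samples were grouped by the sample labels. Symbols were matched by identifier to GENCODE vM21 (53620 of 53801 identifiers).

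Expected counts were rounded, filtered with filterByExpr, TMM normalized and fitted with edgeR 4.0.16 (R 4.3.3) with 1 mean for each of the 4 groups, an adjusted p under 0.05 being called. CPM are counts divided by the library total and scaled to 1000000. The scripts were tested on simulated data. Limma 3.58.1 used genes above 0 in at least 1 compared library. Alternatives were library totals, DESeq2 1.42.0, no filter, limma with pseudocounts of 1 and 0.1, the compared libraries alone, a replicate block, and each library left out.

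The 10 genes, the 5 pathway lists (92 genes) and the 8 marker lists (80 genes) were chosen with earlier results of these data known. Named genes were all 10 members, every receptor past the filter, the 3 with the largest significant change per list, direction and comparison, and the 2 nearest profiles per member. Genes named beside these, and the promoter motifs, were chosen after values were seen. Intervals cover the fitted spread only.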

Additional observations from a re-analysis of the deposited data

Results flagged for a closer look

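The effect of 4HBP differed between the media for 6 of the 10 feedback genes, by the interaction term of the edgeR fit over all 11 libraries. On the log2 scale, the effect in proliferation medium minus that in differentiation medium was 1.53 for Dusp6 (adjusted p = 5.9e-04), 1.00 for Spry1 (0.044), 0.96 for Spry4 (0.037), 0.79 for Etv5 (0.013), 0.52 for Spry2 (0.023) and 0.39 for Spred1 (0.046), where 4.49% of all genes tested differed in either direction. Dusp6 passed in all 11 fits that left out 1 library, Etv5 in 9, Spry2 in 4, Spry4 in 3, and Spry1 and Spred1 in 2 each. Summed astrocyte markers, which were 9229 to 10502 CPM with vehicle and 7289 to 8237 CPM with 4HBP in proliferation medium, were 14828 to 14900 and 14699 to 15101 CPM in differentiation medium, and their part in these differences was not tested.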

How the results depend on the processing

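No called member reversed its direction in any of the 890 alternative values computed for single genes; 776 kept their side of the threshold, 103 lost a call and 11 gained one. For 4HBP in proliferation medium, limma called 0 members with either pseudocount, and 8 with 1 library left out was the highest count (6 the lowest); with the 6 proliferation libraries fitted alone and 1 left out, an alternative chosen after seeing the data, 1 member passed without 4HBP replicate 2, vehicle replicate 1 or vehicle replicate 2, 3 without 4HBP replicate 1, 6 without 4HBP replicate 3 and 7 without vehicle replicate 3. In differentiation medium the 5 libraries fitted alone gave 1 (0 to 1 with 1 left out). For the medium comparisons, 6 to 7 members passed in vehicle and 7 to 8 in 4HBP cultures with 1 library left out. For the interaction, 2 and 1 passed with limma (pseudocounts 1 and 0.1) and 1 to 8 with 1 library left out; 6 passed with DESeq2, with library totals and without a filter. Same-numbered replicates did not deviate together (correlations -0.128 to 0.036). With only 2 or 3 pairs per comparison, this cannot show whether the cultures were paired by number. With the replicate block the interaction kept 1 member, Dusp6, and the proliferation effect kept 6. Spry1 then lost its call between media under 4HBP (adjusted p = 0.065). Over all genes, the calls for 4HBP in proliferation medium were 2668, against 18 and 22 with limma, 1074 with the 6 libraries alone and 1479 with the block; for the interaction they were 715, against 1086 with DESeq2, 1616 without a filter, 264 and 157 with limma and 156 with the block. The causes were not tested. Fosl1, with as few as 18 counts in a library, has the widest intervals.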
